A study of Mus musculus with 4 samples.

Results

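The Polycomb genes described here are Ezh1, Ezh2, Eed, Suz12 and Jarid2, which encode subunits of Polycomb repressive complex 2 (PRC2), and Bmi1, Rnf2, Cbx2 and Cbx8, which encode subunits of Polycomb repressive complex 1 (PRC1). These 9 genes of the 18193 with a gene symbol of their own were read through every probe set that the platform annotation assigns to 1 of them alone, 27 of 34945 such probe sets. RNA came from tumour epithelial cells of chemically induced squamous cell carcinomas of mouse skin, sorted for the epithelial protein Epcam and against CD45 (leukocytes), CD31 (endothelium) and CD140a (mesenchyme). Cells with the Sox2-GFP reporter signal (Sox2-GFP-positive, n = 2 arrays) were compared with cells without it (Sox2-GFP-negative, n = 2 arrays), both labelled as malignant. The reporter marks cells by GFP from the Sox2 gene. Both populations were taken from 2 tumours of 2 mice, according to the series text, and the sources used here give neither strain nor age. Nothing ties an array to a mouse, so that p-values measure only the spread between these samples.

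Polycomb complexes keep developmental genes silent through marks on histones. PRC2 methylates a lysine of histone H3, and PRC1 attaches ubiquitin to histone H2A and compacts chromatin, with chromodomain subunits that read the mark left by PRC2. In mouse epidermis, PRC2 is known to hold back terminal differentiation genes and the Merkel cell programme of progenitor cells, and Bmi1 is best known for repressing the Cdkn2a locus and sustaining stem cell renewal.

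Over all genes, each by its brightest probe set, 35.5% lay above without overlap in positive arrays and 14% below. The marker counts of this paragraph stand beside these shares. Of 6 keratinocyte markers, 3 lay above without overlap in positive arrays and 2 below (median difference 0.001). The widest gaps were those of Cdh1, the epithelial cadherin, at 9.64 and 10.36 in positive arrays, against 10.74 and 11.18 in negative arrays on the log2 scale, and of Itga6, a basal integrin, at 11.83 and 12.28 in positive arrays, against 11.45 and 11.53 in negative arrays. Epcam, the marker sorted for, read 10.75 and 11.79 in positive arrays, against 11.24 and 11.80 in negative arrays. Of the markers sorted against, Pdgfra (CD140a) read 5.93 and 4.85 in positive arrays, against 7.83 and 5.96 in negative arrays. Pecam1 (CD31) read 5.57 and 6.41 in positive arrays, against 8.44 and 6.27 in negative arrays. Ptprc (CD45) read 4.98 and 4.34 in positive arrays, against 4.97 and 4.18 in negative arrays. The basal keratins Krt5 and Krt14 and the factor Trp63, picked after their values were seen, read between 12.37 and 13.32 in all 4 arrays. The single Sox2 probe set read 3.50 and 3.27 in positive arrays and 3.14 and 3.43 in negative arrays, while the 5th percentile of the arrays lay at 3.34 to 3.37, so Sox2 transcript was no check of the labels. Of 10 fibroblast markers, 9 lay below the negative arrays in both positive arrays, with a mean level, relative to each gene's mean over the 4 arrays, of -0.05 and -2.31 in positive and 1.91 and 0.45 in negative arrays. The same level was -0.01 and -0.82 in positive and 1.12 and -0.28 in negative arrays for 8 endothelial markers, and -0.02 and -0.65 in positive and 0.87 and -0.20 in negative arrays for 10 immune markers. Lum, a matrix proteoglycan of fibroblasts, read 7.04 and 4.57 in positive arrays, against 10.04 and 7.82 in negative arrays. The endothelial marker Emcn read 5.99 and 4.20 in positive arrays, against 7.94 and 6.21 in negative arrays, and the leukocyte marker Laptm5 read 7.35 and 6.38 in positive arrays, against 9.50 and 7.43 in negative arrays. Of the endothelial markers 0 lay above and 1 below without overlap, of the immune markers 1 above and 2 below, and of 5 melanocyte markers 0 above and 4 below (median -1.62, or -0.998 without positive replicate 2 and -1.06 without negative replicate 1). Other markers with the widest gaps were Postn (difference -3.26), Cd3e (-1.10), Tyrp1 (-2.42) and Mlana (-1.62). The log2 table holds no value of 0, and the part of these markers in the differences below was not tested. In sorted bulk RNA, fewer cells that express a gene and less transcript per cell cannot be told apart.

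Among the 27 Polycomb probe sets, 13 had both Sox2-GFP-positive arrays above both Sox2-GFP-negative arrays (48.1%), beside 29.7% of all 45037 probe sets tested. Only 1 lay below without overlap, beside 18.4% of all, and 13 overlapped. The widest differences were in Bmi1, in Suz12 and in the PRC1 chromodomain gene Cbx8, while Ezh2 and Jarid2 differed little and Ezh1 had the opposite sign. The median log2 difference, positive minus negative, was 0.36 over the 27 probe sets and 0.07 over all probe sets. Taken as 1 brightest probe set per gene, 5 of 9 lay above without overlap, beside 35.5% of 18193 genes, and none below, beside 14% of genes, with medians of 0.36 for the 9 and 0.14 for all genes. No Polycomb probe set passed limma, a linear model with moderated variances, at an adjusted p of 0.05 (0 higher and 0 lower, 0% of all probe sets in either direction), and the Polycomb adjusted p ran from 0.292 to 0.933. At an unadjusted p under 0.05 stood 4 Polycomb probe sets, all higher, beside 3349 higher (7.44%) and 2976 lower (6.61%) of all probe sets. Trended and robust priors also called 0. Left without positive replicate 1 the count above without overlap was 22, and without negative replicate 2 it was 21. Without negative replicate 1 that count was 15, and without positive replicate 2 it stayed at 13. Leaving out an array cannot lower such a count, and what set the size of the rise was not tested. The count below was 4 without positive replicate 2 and 5 without negative replicate 2. No share over all probe sets with the same array left out stands beside these counts, so they show nothing particular to Polycomb genes. Without positive replicate 2 the median difference was 0.13.

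**Figure D1:**
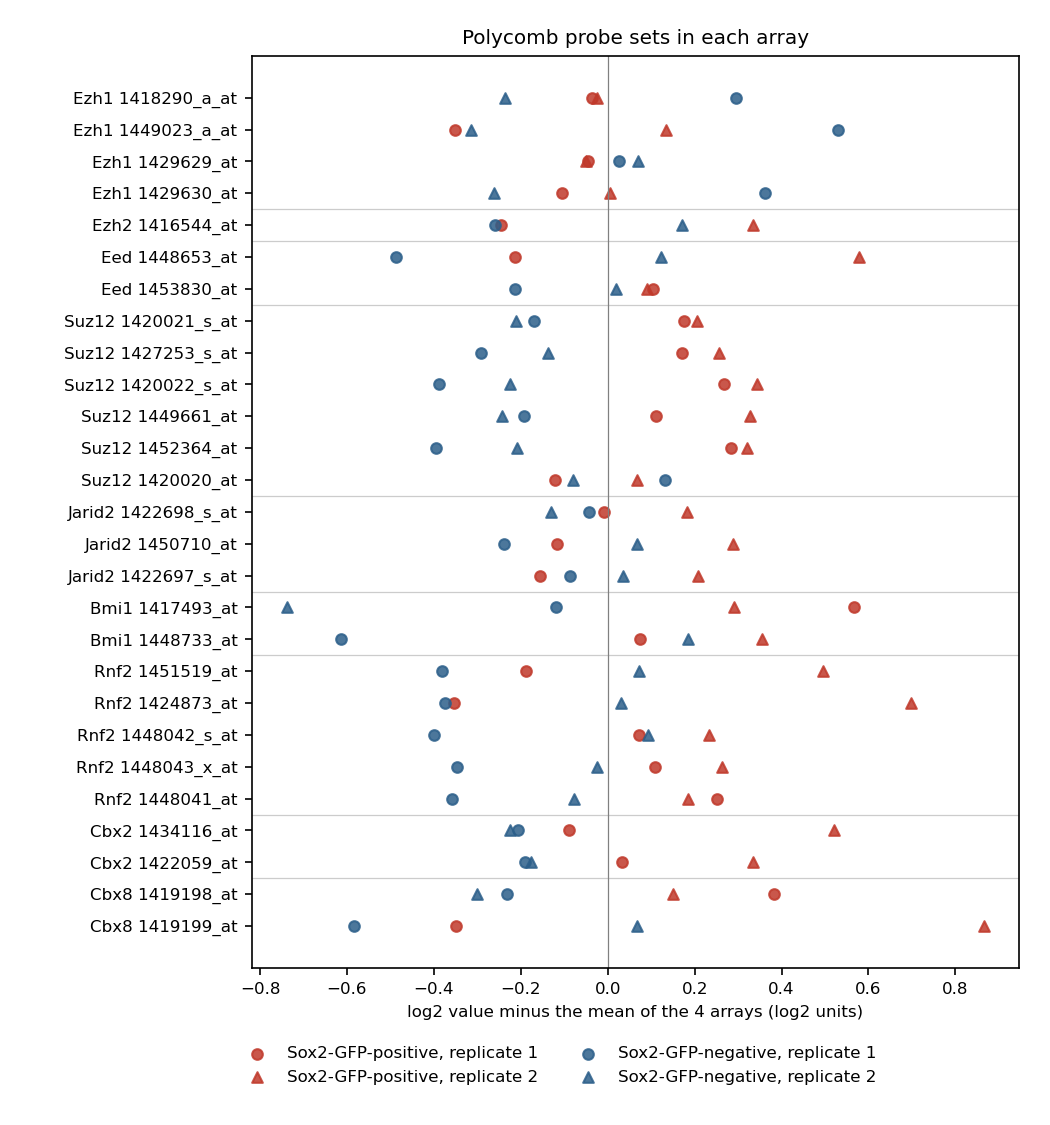
Log2 value of each Polycomb probe set in each array, minus that probe set's mean over the 4 arrays, in log2 units. Red symbols are Sox2-GFP-positive and blue symbols Sox2-GFP-negative arrays, circles are replicate 1 and triangles replicate 2. In 13 of 27 rows both red symbols lie to the right of both blue ones, and 5 of these rows are Suz12.

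The scale between arrays matters for any absolute direction. Scaling to the 24 bacterial poly-A spike-in probe sets, which read 0.79 lower in positive than in negative arrays, moved the median of all probe sets to 0.86 and raised every difference by the same 0.79. Under it 21 of the 27 Polycomb probe sets were called higher by limma, beside 59.3% of all probe sets. Differences below are therefore plain differences of the deposited values. No median was subtracted, and they are to be read beside the median difference of all probe sets, 0.07.

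Bmi1 (chromosome 2, GRCm38.p6, 18677018 to 18686629) encodes the PRC1 subunit that joins the ubiquitin ligase RNF2 and stimulates it. Its brighter probe set, 1417493_at, read 7.97 and 7.69 in positive arrays, against 7.28 and 6.66 in negative arrays. The groups did not overlap, and the lowest positive array lay 0.41 above the highest negative one. Positive minus negative came to 0.86 ± 0.28 on the log2 scale (moderated SE, 2 arrays per group, adjusted p = 0.320 in limma). That is a ratio of 1.81 and the largest difference among the 27. Each SE and 95% interval given here is that of limma, with a variance drawn toward that of all probe sets. It is not the plain spread of the 2 arrays per group. Positive cells exceeded negative cells by 0.68 in replicate 1 and by 1.03 in replicate 2, and with an array left out the difference was 0.55 to 1.17, the lowest without negative replicate 2 and the highest without negative replicate 1. The other Bmi1 probe set, 1448733_at, read 6.32 and 6.60 in positive arrays, against 5.63 and 6.43 in negative arrays. Here positive replicate 1 fell between the negative arrays, and the difference was 0.43 ± 0.33 (SE, adjusted p = 0.596), or 0.030 without negative replicate 1. The probe sets also disagreed on the replicates: in negative arrays replicate 2 was 0.62 below replicate 1 by the first and 0.80 above it by the second.

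Promoters are shown for Bmi1, which held the largest difference, for Suz12, with 5 of 6 probe sets above without overlap, and for Ezh2, which overlapped. RefSeq promoter windows, 250 bases before to 50 after a gene's start, were held for 8 of the 9 genes. These were 9 windows, with a further one for Jarid2, and a gene was counted if any of its windows matched. The 250 bases before each start are printed 5′ to 3′ on the gene's strand, at chr2:18676768-18677017 (plus strand) for Bmi1 and chr11:79992856-79993105 (plus strand) for Suz12. For Ezh2, 30 bases around a RefSeq start at chr6:47595012-47595041 (minus strand) are given. Capitals mark matches on either strand to an E-box (CACGTG), an E2F-type motif (TTTCCCGC or TTTGGCGC) or a CCAAT box (CCAAT).
Bmi1: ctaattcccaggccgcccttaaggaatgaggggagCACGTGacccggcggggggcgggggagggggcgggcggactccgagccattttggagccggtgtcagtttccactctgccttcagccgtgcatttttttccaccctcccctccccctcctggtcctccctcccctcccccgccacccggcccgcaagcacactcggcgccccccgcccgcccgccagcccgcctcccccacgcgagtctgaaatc
Suz12: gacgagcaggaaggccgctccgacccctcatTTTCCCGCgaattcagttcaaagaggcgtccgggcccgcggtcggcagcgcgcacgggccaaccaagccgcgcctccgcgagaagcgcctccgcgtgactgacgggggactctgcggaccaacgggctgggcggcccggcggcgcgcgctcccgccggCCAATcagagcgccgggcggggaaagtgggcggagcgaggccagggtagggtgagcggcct
Ezh2: ATTGGgttgctgcgTTTGGCGCtcggtccg

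The E-box lies 215 bases before the start of Bmi1, and an E-box was found in 7.15% of the 32851 mouse windows and in 2 of the 8 Polycomb genes (Bmi1 and Cbx8). The E2F-type motif lies 219 bases before the start of Suz12 and 3 bases after the RefSeq start used for Ezh2. That Ezh2 start lies inside the gene span given below, which reaches 47595270. The E2F-type motif was held by 1.56% of windows and by the windows of these 2 genes. A CCAAT box occurred in 37.4% of windows and in 5 of the 8 genes (Cbx8, Eed, Ezh2, Jarid2 and Suz12). GC boxes (GGGCGGG), left in lower case, occurred in 25.6% of windows and in 5 of the 8 genes, Bmi1 and Suz12 among them. These matches are letters in a window and were not tested as binding sites.

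Suz12 (chromosome 11, 79993106 to 80034123) encodes the PRC2 scaffold on which the enzyme and its accessory subunits assemble. Of its 6 probe sets, 5 lay above the negative arrays in both positive arrays. The widest was 1420022_s_at, at 8.81 and 8.89 in positive arrays, against 8.16 and 8.32 in negative arrays. Its difference was 0.61 ± 0.18 (SE, 2 arrays a group, adjusted p in limma = 0.292, the lowest among the Polycomb probe sets), 1.53-fold. Probe set 1452364_at read 6.99 and 7.02 in positive arrays, against 6.31 and 6.49 in negative arrays (0.60 ± 0.18 SE, adjusted p = 0.296). Replicates were close here: positive arrays differed by 0.03 to 0.22 and negative arrays by 0.04 to 0.18 over the 5 probe sets, less than each group difference of 0.38 to 0.61. The other 3 of these 5 had differences of 0.38 to 0.44 (adjusted p = 0.386 to 0.407). The sixth, 1420020_at, read 5.54 and 5.73 in positive arrays, against 5.79 and 5.58 in negative arrays, with groups that overlapped and a difference of -0.05 ± 0.19 (SE, adjusted p = 0.924). The probe sets share 1 transcript, so their likeness is no replication, and those ending in _s_at can match more than 1 transcript.

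Ezh2 (chromosome 6, 47530274 to 47595270), the main PRC2 methyltransferase of dividing cells, did not separate the populations. Its only probe set read 7.61 and 8.19 in positive arrays, against 7.59 and 8.02 in negative arrays. Replicate 2 was the higher array in both groups, by 0.58 in positive and by 0.43 in negative cells. The group difference was 0.09 ± 0.29 (SE, 2 arrays a group, adjusted p in limma = 0.915), and its 95% interval from -0.69 to 0.86 does not show that the populations were alike. The sign turned without positive replicate 2 (-0.20) and without negative replicate 1 (-0.13). Of 19 cell cycle genes measured, with which Ezh2 is known to be expressed, 18 lay above without overlap and 0 below, with a median of 0.70, beside 35.5% of genes above. Cdk1, the mitotic kinase, read 9.73 and 9.56 in positive arrays, against 8.28 and 8.45 in negative arrays, and the other genes named by the widest gap were E2f1 (0.96), Aurka (1.37) and Aurkb (1.14); limma adjusted p over the list ran from 0.226 to 0.812. The difference between Ezh2 and these genes was not tested.

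Ezh1 (chromosome 11, 101191115 to 101226463), the related methyltransferase best known from resting cells, was the only gene of the 9 whose differences all lay below 0. Its brightest probe set, 1418290_a_at, read 7.52 and 7.53 in positive arrays, against 7.85 and 7.32 in negative arrays, so that the positive arrays fell between the negative ones. Probe set 1449023_a_at read 6.43 and 6.91 in positive arrays, against 7.31 and 6.46 in negative arrays. The 4 differences ran from -0.22 to -0.06 (limma adjusted p = 0.821 to 0.933). Within replicate 1 they lay between -0.88 and -0.07, and within replicate 2 between -0.12 and 0.45, with 3 of 4 above 0. Negative replicate 1 was the highest array in 3 of the 4 probe sets, and was also the array with the highest fibroblast, endothelial and immune marker levels, whose part in the Ezh1 values was not tested. Without that array those 3 differences were 0.205, 0.207 and 0.212; for 1449023_a_at the difference was also above 0, at 0.027, without positive replicate 1. The 1 Polycomb probe set below without overlap, 1429629_at, read 4.09 and 4.09 in positive arrays, against 4.17 and 4.21 in negative arrays, below the lower quartile of each array (4.19 to 4.25).

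Eed (chromosome 7, 89954654 to 89980976) encodes the subunit that binds methylated histone H3 and activates the enzyme. Its brighter probe set, 1448653_at, read 9.56 and 10.35 in positive arrays, against 9.28 and 9.90 in negative arrays. Each positive array lay above the negative array of the same number, by 0.27 and 0.45, but replicate 2 exceeded replicate 1 by more, 0.79 in positive and 0.61 in negative cells. The difference was 0.36 ± 0.37 (SE, 2 arrays a group, adjusted p in limma = 0.692), and it was -0.031 without positive replicate 2. The other probe set, 1453830_at, stayed at 3.74 to 4.06, below the lower quartile of every array, and had the positive arrays above by 0.20 ± 0.19 (SE, adjusted p = 0.671).

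Jarid2 (chromosome 13, 44730774 to 44921643), a PRC2 accessory subunit that helps the complex bind chromatin, was near level. Its brightest probe set, 1422698_s_at, read 11.14 and 11.33 in positive arrays, against 11.10 and 11.02 in negative arrays. The groups were apart by 0.033 between their nearest arrays. The difference was 0.17 ± 0.18 (SE, 2 arrays a group, adjusted p in limma = 0.700), with a 95% interval from -0.31 to 0.66, and those of the other probe sets were 0.17 and 0.05.

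Rnf2 (chromosome 1, 151469398 to 151500991) encodes the PRC1 ubiquitin ligase also called RING1B. All 5 probe sets had positive differences, from 0.31 to 0.44, in both replicate numbers, and 2 of the 5 lay above without overlap. The brightest, 1451519_at, read 7.71 and 8.39 in positive arrays, against 7.51 and 7.97 in negative arrays (0.31 ± 0.32 SE, limma adjusted p = 0.697). Probe set 1424873_at read 6.93 and 7.98 in positive arrays, against 6.90 and 7.31 in negative arrays, so its difference came from the replicate 2 arrays (0.67, beside 0.02 in replicate 1). Both had a negative sign without positive replicate 2 (-0.033 and -0.18), and without negative replicate 1 the 5 differences were 0.059 to 0.30. The lowest adjusted p was that of 1448041_at (0.407), a dim probe set at 4.88 and 4.81 in positive arrays, against 4.27 and 4.55 in negative arrays.

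The chromodomain genes Cbx2 and Cbx8, whose products read the PRC2 mark for canonical PRC1, lie near each other on chromosome 11 (119023019 to 119031275 and 119036303 to 119040913). Cbx8 probe set 1419198_at read 6.39 and 6.16 in positive arrays, against 5.77 and 5.71 in negative arrays. Both positive arrays were higher, by 0.53 ± 0.19 (SE, 2 arrays a group, adjusted p in limma = 0.338), 1.45-fold. The second Cbx8 probe set, 1419199_at, read 5.34 and 6.55 in positive arrays, against 5.10 and 5.76 in negative arrays, and overlapped (0.52 ± 0.49 SE, adjusted p = 0.668). Without positive replicate 2 its difference was -0.090. For Cbx2, 1434116_at read 5.39 and 5.999 in positive arrays, against 5.27 and 5.25 in negative arrays. The other Cbx2 probe set, 1422059_at, read 5.51 and 5.81 in positive arrays, against 5.28 and 5.30 in negative arrays. Both separated the groups, with the nearest arrays of the groups 0.12 and 0.21 apart, and differences of 0.43 ± 0.26 and 0.37 ± 0.20 (SE, adjusted p = 0.519 and 0.471). Without positive replicate 2 these differences were 0.13 and 0.22.

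**Figure D2:**
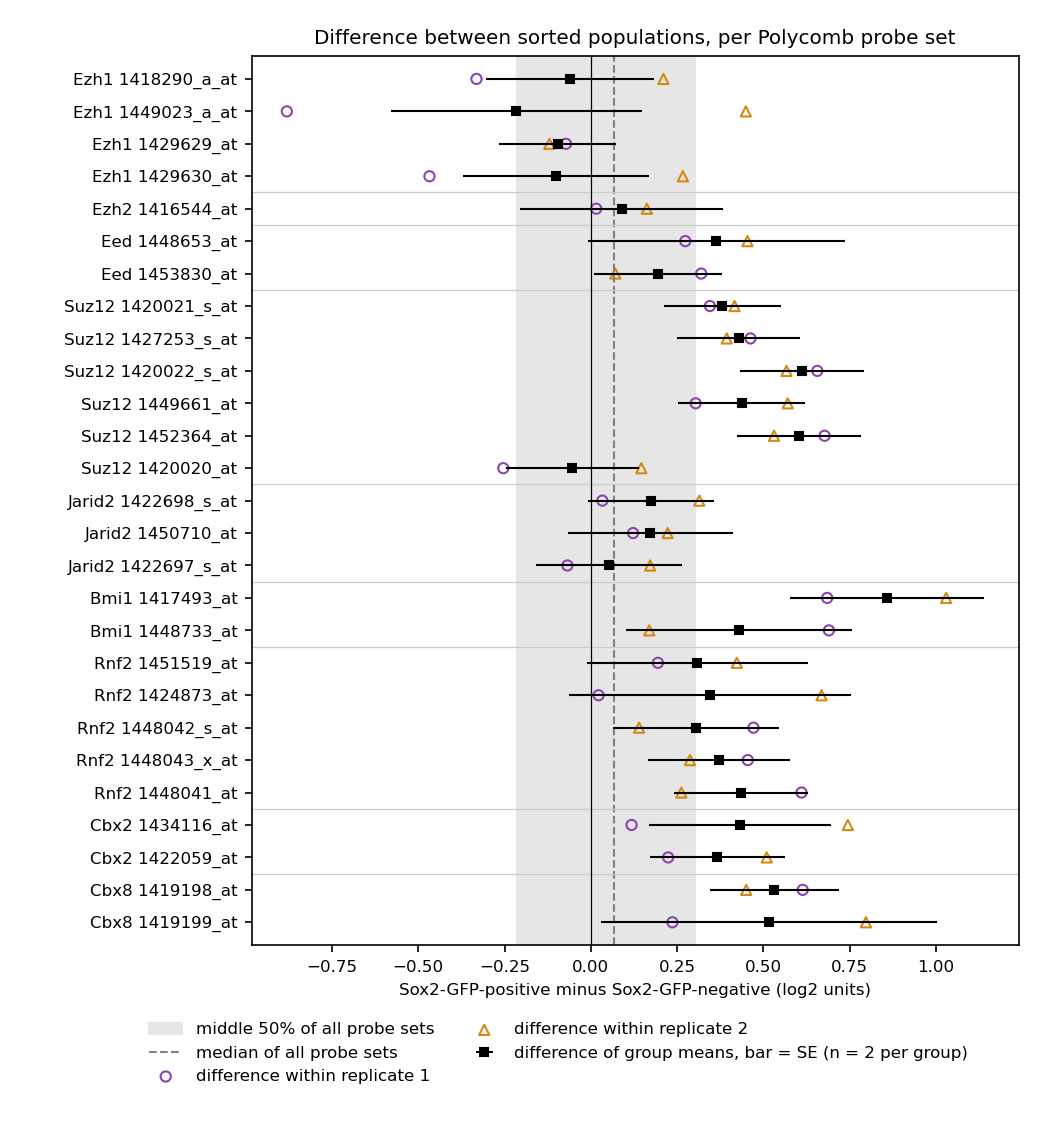
Log2 difference, Sox2-GFP-positive minus Sox2-GFP-negative, for each Polycomb probe set (square, bar = moderated SE of limma, n = 2 per group). Differences within replicate 1 (circle) and replicate 2 (triangle) are also shown. The grey band is the middle 50% of all probe sets (-0.21 to 0.30) and the dashed line their median (0.07). Bmi1 1417493_at lies farthest right at 0.86, and the 4 Ezh1 squares lie left of 0.

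The replicate number set several of these genes apart as clearly as the reporter did. Both replicate 2 arrays lay above both replicate 1 arrays in 9 of the 27 Polycomb probe sets, beside 14.3% of all probe sets, and in none did they lie below, beside 12.1% of all. These 9 included Ezh2, the brighter Eed probe set, 3 of Rnf2, 2 of Jarid2 and 1 each of Bmi1 and Cbx8. In 11 of the 27 the mean replicate difference was larger in size than the group difference, beside 37.8% of all probe sets. None of the 6 Suz12 and 2 Cbx2 probe sets was among these 11. Opposite replicate differences cancel in this mean. Suz12 1420020_at had 0.19 in positive and -0.21 in negative arrays, each larger in size than its group difference of -0.05. The replicate numbers may stand for the tumours, which the labels do not state. With the replicate number as a block, the 27 probe sets had adjusted p of 0.224 to 0.944 by limma, and no call changed.

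**Figure D3:**
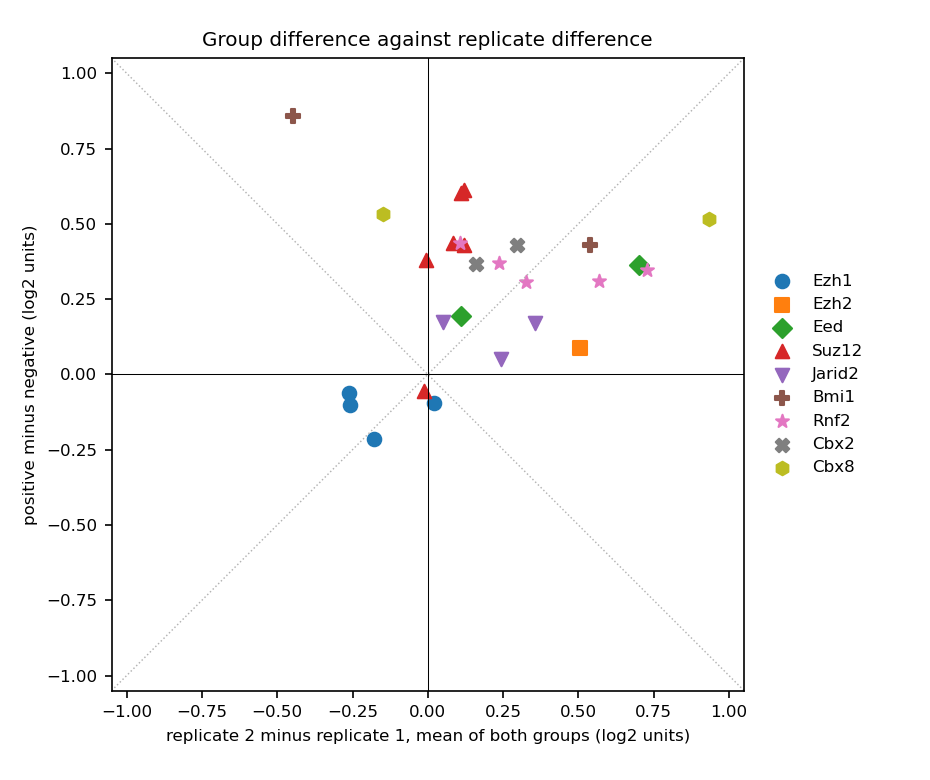
For each Polycomb probe set, the group difference (positive minus negative, vertical axis) against the difference between replicate 2 and replicate 1 averaged over both groups (horizontal axis), both in log2 units. Dotted lines mark equal size. Suz12, Cbx2 and the brighter Bmi1 probe set lie where the group difference is the larger, and Ezh2 and the brighter Eed probe set where the replicate difference is.

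Genes with a profile most like that of a member were picked by Euclidean distance over the 4 arrays after each profile was centred on its mean. Picked this way, their group differences had to lie near that of the member, so they are no separate result. Candidates were the 18193 genes by brightest probe set, less predicted genes and those named by a clone or number. Nearest to Bmi1 were Phax, an RNA export adaptor (distance 0.054, difference 0.88), Baz1b, a chromatin remodelling subunit (0.077, difference 0.80), and Ccdc92 (0.096, difference 0.95). Baz1b read 10.05 and 9.83 in positive arrays, against 9.47 and 8.81 in negative arrays. Nearest to Ezh2 were Tax1bp1, an autophagy receptor (distance 0.015, difference 0.08), and the transcription factors Deaf1 (0.045, difference 0.05) and Hivep1 (0.061, difference 0.09).

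Other subunits and opposing factors were followed through lists, each gene by its brightest probe set. Other PRC1 and PRC2 genes and those of the H2A deubiquitinase complex, which removes the PRC1 mark, made 49 measured genes. Of these, 21 lay above without overlap (42.9%, beside 35.5% of all genes) and 4 below (beside 14% of genes). None passed limma over all probe sets. Counts of each list below stand beside the same 35.5% above and 14% below of all genes. Among 9 other canonical PRC1 genes, 4 lay above (44.4%) and 1 below, with a median difference of 0.25 (0.11 without negative replicate 2). Scmh1, a Polycomb protein with a SAM domain, read 7.08 and 7.10 in positive arrays, against 5.67 and 5.49 in negative arrays. It was 2.85-fold higher (1.51 ± 0.18 SE, 2 arrays a group, adjusted p in limma = 0.226), more than any of the 9 members. Phc1, a polyhomeotic subunit that lets PRC1 polymerise, read 7.39 and 8.31 in positive arrays, against 6.60 and 6.53 in negative arrays (2.44-fold, adjusted p = 0.277). Both exceeded the spread between arrays of a group.

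Variant PRC1 works without chromodomain subunits of the Cbx2 and Cbx8 kind. Of 21 variant PRC1 genes, 10 lay above (47.6%) and 1 below, with a median of 0.21 (0.13 without negative replicate 2). Pcgf3, the relative of Bmi1 in a variant complex, read 8.77 and 8.78 in positive arrays, against 7.68 and 7.47 in negative arrays (2.30-fold, limma adjusted p = 0.226). Hdac1, a histone deacetylase, and Tfdp1, the partner of E2F factors, had differences of 0.47 and 0.56, and the ubiquitin protease gene Usp7 one of -0.49 (adjusted p = 0.322 to 0.398). For 10 other PRC2 genes, 3 lay above (30%) and 2 below, with a median of 0.09 (0.017 without negative replicate 1 and 0.054 without negative replicate 2). Epop, an accessory subunit linking PRC2 to elongin, read 7.09 and 7.66 in positive arrays, against 6.15 and 6.63 in negative arrays (1.98-fold, adjusted p = 0.300). Mtf2, an accessory subunit that binds DNA, read 9.27 and 9.28 in positive arrays, against 9.51 and 9.61 in negative arrays (-0.29, adjusted p = 0.512). For the 9 genes of the H2A deubiquitinase complex, which removes the PRC1 mark, 4 lay above (44.4%) and 0 below (median 0.18, or -0.030 without positive replicate 2), with Asxl3 at a difference of 0.48 and Foxk2 at 0.28.

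Of 14 factors that oppose Polycomb, 5 lay above (35.7%, beside 35.5% of all genes) and 5 below (beside 14% of genes), with a median of 0.015. The median had no stable sign: it was 0.14 without positive replicate 1, -0.19 without positive replicate 2, 0.089 without negative replicate 1 and -0.041 without negative replicate 2. Smarca2, an ATPase of SWI/SNF chromatin remodelling, read 8.83 and 8.53 in positive arrays, against 9.54 and 9.36 in negative arrays, 1.70-fold lower (-0.77 ± 0.21 SE, 2 arrays a group, adjusted p in limma = 0.276). Kmt2c, a methyltransferase of histone H3, had a difference of -0.69 (adjusted p = 0.363). Ash2l and Dpy30, shared subunits of such methyltransferases, had differences of 0.73 and 0.52 (adjusted p = 0.275 and 0.369). Smarca2 and Kmt2c lay near 0 after spike-in scaling (0.022 and 0.11).

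Genes known as Polycomb targets went both ways. Of 33 Hox genes measured, 8 lay above (24.2%, beside 35.5% of all genes) and 5 below (beside 14% of genes). Their median of 0.10 was -0.031 without positive replicate 1, 0.39 without positive replicate 2 and 0.24 without negative replicate 1. Hoxc5 read 7.19 and 7.57 in positive arrays, against 6.15 and 5.85 in negative arrays, and Hoxa7 read 9.47 and 9.13 in positive arrays, against 8.07 and 8.19 in negative arrays. Hoxc8 read 4.24 and 4.44 in positive arrays, against 6.75 and 5.74 in negative arrays, and Hoxd8 read 5.15 and 4.53 in positive arrays, against 6.98 and 5.73 in negative arrays. These 4 homeobox genes had limma adjusted p of 0.233 to 0.317. Both lower ones were highest in negative replicate 1, the array with the highest fibroblast marker level, and that level's part was not tested. Of 25 other target genes, 13 lay above (52%, beside 35.5% of all genes) and 1 below (beside 14% of genes). Their median of 0.31 was 0.091 without positive replicate 1 and 0.55 without positive replicate 2. Most of the 13 above were dim, with both group means below the median of every array (5.49 to 5.61). The nearest arrays of the groups were only 1e-04 apart for Pax7 and 0.0024 apart for Tbx5. Cdkn2a, which encodes the cell cycle inhibitor p16 and the p53 activator ARF, read 5.99 and 6.26 in positive arrays, against 4.75 and 4.58 in negative arrays, 2.76-fold higher while Bmi1 was higher too (1.46 ± 0.20 SE, n = 2 per group, adjusted p = 0.226). Its neighbour Cdkn2b had a difference of 0.77, the endodermal factor gene Gata6 one of -1.19 and the T-box factor gene Eomes one of 1.14 (adjusted p = 0.231 to 0.313). In negative arrays Eomes read 4.06 and 4.08, below the lower quartile of every array (4.19 to 4.25). Of 6 Merkel cell markers, 3 lay above and 0 below (median 0.39, or 0.092 without positive replicate 1 and 0.59 without positive replicate 2). Krt18 read 8.01 and 7.78 in positive arrays, against 5.48 and 7.41 in negative arrays, while Krt20, at 4.27 and 3.93 in positive arrays, against 3.76 and 3.76 in negative arrays, stayed near the lower quartile.

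**Figure D4:**
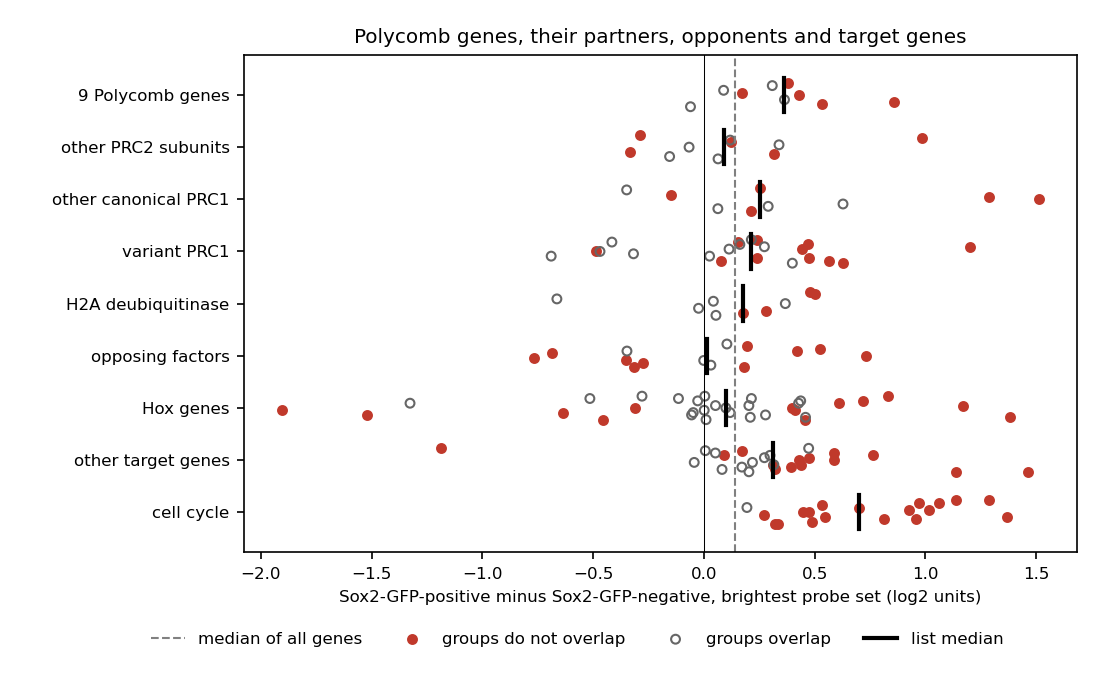
Log2 difference, Sox2-GFP-positive minus Sox2-GFP-negative, of each gene by its brightest probe set, for the 9 Polycomb genes and 8 lists. Red points have groups that do not overlap, open points overlap, black bars are list medians and the dashed line is the median of all genes (0.14). The cell cycle list lies farthest right, with a median of 0.70, and the Polycomb genes have a median of 0.36.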

How the data were processed

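RNA of 4 sorted samples was hybridised to Affymetrix mouse 430 2.0 arrays, 1 per sample. The authors deposited log2 values for 45101 probe sets, a scale read from the values; R 2.14.0 is named per the submitters' processing notes, while how probes were corrected, normalized and summarised is not given in the sources used here. Groups and replicate numbers come from the titles. The 64 control probe sets were left out, and 34945 of the other 45037 carry 1 gene symbol, 932 several and 9160 none.

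The test was limma 3.58.1 in R 4.3.3 (lmFit, eBayes) over all 45037 probe sets, with group as the only term, Benjamini-Hochberg adjustment and 2 residual degrees of freedom beside a prior of 2.56; it was tested on simulated data. With 2 arrays per group, their number limits the precision, and values lack detection calls. The series text names 2 tumours without tying them to replicate numbers; over probe sets, the replicate differences of the groups correlated with r = 0.18, so pairing is undecided and the block is an alternative.

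The members and the 14 lists (198 entries, 185 measured) were chosen with earlier results of these data known. Named were all members, up to 4 genes per list (2 for lists of 10 or fewer) with the widest gap between nearest arrays of the groups, and the 3 genes closest in profile to Bmi1 and to Ezh2. Alternatives covered scaling, block, prior, threshold, probe set choice, a filter on dim probe sets and leaving out each array.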

Additional observations from a re-analysis of the deposited data

How the results depend on the processing

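With 2 arrays per group, no Polycomb probe set, partner gene or other probe set was called under the replicate block, quantile normalization, their combination, equal medians, other priors, an adjusted p under 0.1, 1 probe set or the mean per gene, a filter on dim probe sets, or any array left out (0 to 0); the block changed no call (Bmi1 1417493_at adjusted p = 0.224). Spike-in scaling, which adds 0.79 to every difference, called 26711 higher (59.3%) and 315 lower over all probe sets. It called 21 of the 27 Polycomb probe sets and 43 partner or opposing genes higher. The Polycomb median was then 1.15 by probe set and by gene. The count above without overlap, 13 of 27, was 26 of 27 under spike-in scaling and 13 to 22 of 27 with an array left out. In smaller sets it was 8 without dim probe sets, 8 without _s_at and _x_at probe sets and 5 of 9 with 1 probe set per gene. The 1 below was 0 under equal medians, spike-in scaling, the dim filter and 1 probe set per gene, and 1 to 5 with an array left out. Except for 1 probe set per gene (35.5% of all genes above, 14% below), these alternative counts lack the matching share over all probe sets. They show nothing particular to Polycomb genes. The Polycomb median was 0.13 to 0.42 by probe set and 0.078 to 0.42 by gene with an array left out.

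Some signs turned. Equal medians gave 0.021 for Ezh1 1418290_a_at and 0.028 for Suz12 1420020_at; quantile normalization, with or without the replicate block, gave 0.027 for Suz12 1420020_at and -0.026 for Jarid2 1422697_s_at. Spike-in scaling, through the same 0.79 added to every probe set, gave 0.73, 0.58, 0.70 and 0.69 for Ezh1, 0.74 for Suz12 1420020_at, 0.50 for Mtf2, 0.30 for Usp7, 0.11 for Kmt2c and 0.022 for Smarca2. With an array left out, differences ran from -0.33 to 0.21 (Ezh1 1418290_a_at), -0.64 to 0.21 (1449023_a_at), -0.41 to 0.21 (1429630_at), -0.20 to 0.38 (Ezh2), -0.031 to 0.76 (Eed 1448653_at), -0.16 to 0.052 (Suz12 1420020_at), -0.13 to 0.23 (Jarid2 1422697_s_at), -0.031 to 0.38 (Jarid2 1450710_at), -0.18 to 0.87 (Rnf2 1424873_at), -0.033 to 0.65 (Rnf2 1451519_at) and -0.090 to 1.12 (Cbx8 1419199_at). Apart from that added 0.79, the cause was not tested.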
